A study of Mus musculus with 9 samples.

Results

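The genes of the NF-κB subunits and of their IκB inhibitors were read by symbol from a table of 24060 mouse genes, and all 10 were found: the subunits Nfkb1, Nfkb2, Rel, Rela and Relb, the classical inhibitors Nfkbia, Nfkbib and Nfkbie, and the atypical inhibitors Nfkbid and Nfkbiz. NF-κB acts as pairs of subunits that classical inhibitors hold in the cytoplasm. When a T cell receptor (TCR) binds its ligand, a relay that includes protein kinase C theta, BCL10 and MALT1 switches on the IκB kinase (IKK), which marks the classical inhibitors for destruction and frees the subunits for the nucleus. In T cells the pathway is known for its part in the IL-2 response, in survival and in cytokine production, and several of its own subunit and inhibitor genes are also its targets.

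The values came from CD8 T cells of the transnuclear mouse lines R7-I, R7-II and R7-III, on a Rag2 proficient BALB/c background with CD90.2. Each line was made by nuclear transfer from a single CD8 T cell specific for ROP7, an antigen of the parasite Toxoplasma gondii, so a clone is 1 TCR in 1 line, and the TCR and any other difference between the lines cannot be told apart. Spleen cells of every line spent a night in medium with IL-2 (10 ng/ml) and the ROP7 peptide (10 µM), after which live CD3+ CD8+ cells that bound the ROP7 tetramer were sorted. Messenger RNA was sequenced in 9 libraries, 3 biological replicates per clone. The submitters rank the affinity of the TCR for the peptide as R7-I over R7-III over R7-II and self-reactivity as R7-III over R7-I over R7-II, and the comparisons ask how the activated clones differ. The authors' affinity measure with the TCR in the cell membrane was similar for R7-I and R7-III and lower for R7-II. The ages of the mice and whether replicates came from separate mice are not given in the sources used here, so p-values measure only the spread between these libraries, which may be technical. Unstimulated cells were not analysed here, so each difference is between activated clones and says nothing of induction by the peptide.

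Expression was given as TPM (a unit of transcript abundance that is corrected for transcript length and sums to a like total in each library). TPM values carry no read counts, and no counting error was worked out for them. Replicates of a clone had Pearson correlations between 0.992 and 0.997 across genes, which are not independent replicates.

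The sorted cells carried the RNA of CD8 T cells. The 10 CD8 T cell marker genes summed to 2598 ± 32.8 TPM in R7-I, 3561 ± 47.2 in R7-II and 2729 ± 67.1 in R7-III (mean ± SD over 3 libraries, as in all such values), led by Lck, a kinase of TCR signaling. Of these 10, 8 were higher in R7-II than R7-I, where 40.6% of all genes tested were. Genes of other spleen cells had smaller sums, some of which differed between clones. B cell markers, 11 genes led by Cd79b, a chain of the B cell receptor, summed to 78.8, 37.95 and 60.6 TPM in R7-II replicates 1, 2 and 3, to 12.2, 16.7 and 9.23 TPM in R7-I and to 5.53, 8.21 and 8.82 TPM in R7-III. The 8 MHC class II genes, led by Cd74, the invariant chain, summed to 189.6, 116 and 187 TPM in R7-II, 34.8, 51.8 and 33.3 in R7-I and 25.0, 29.5 and 26.0 in R7-III.

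The 14 myeloid and dendritic cell markers, led by Cst3, summed to 123, 108 and 172 TPM in R7-II, 78.3, 75.5 and 69.1 in R7-I and 77.4, 73.1 and 69.5 in R7-III. The 4 CD4 T cell markers, led by Cd40lg, summed to 3.36, 4.11 and 3.42 TPM in R7-I, 4.03, 4.56 and 5.81 in R7-II and 6.29, 5.62 and 8.01 in R7-III. Within this list Cd40lg was highest in R7-III (4.28 to 6.83 TPM, at most 2.87 elsewhere). Cd4 (0.95 to 1.00 TPM, at most 0.53 elsewhere) and Foxp3 (0.62 to 1.07 TPM, at most 0.56 elsewhere) were highest in R7-II. Zbtb7b overlapped between R7-II and R7-III. The 4 natural killer cell markers, led by Klrb1c, summed to at most 0.170 TPM in a library, and Klra8 and Klra4 were listed at 0 in all 9. R7-II thus had more RNA of the B cell, MHC class II and myeloid markers than the other clones, without overlap of these sums. Of the myeloid and dendritic cell markers, Lyz2 was at 28.2, 13.8 and 56.7 TPM in R7-II and at most 2.43 elsewhere. Zbtb46 went the other way, at 0.67, 0.78 and 0.58 TPM in R7-II and at least 1.45 elsewhere. Calls of single genes in these lists are not given, because several passed the filter only through R7-II. Fewer cells of a type and less RNA per cell cannot be told apart in bulk samples, and the part of these cells in the results was not tested.

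All 10 members passed the filter for low values, a maximum TPM over 1, as did 11330 genes in all. Nfkb1, which encodes p105, the precursor of the p50 subunit, was the most abundant at a mean of 640.5 TPM over the 9 libraries and ranked 189 of 11330 genes. Nfkb2, which encodes p100, the precursor of p52, followed at 266 TPM, and Nfkbia, the gene of IκBα, at 247 TPM. The library values of these genes did not separate Nfkb2 from Nfkbia. Rela (135.5 TPM), Nfkbib (129.5 TPM), Nfkbid (124 TPM) and Rel (116 TPM) formed a middle group whose library values overlapped. Relb (70.85 TPM), Nfkbie (48.4 TPM) and Nfkbiz (24.2 TPM, rank 5421) were the lowest of the 10, with no overlap between their library values.

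The order of some members was not the same in each clone. Nfkb2 was above Nfkbia in all 6 libraries of R7-I and R7-III, and Nfkbia was above Nfkb2 in all 3 of R7-II. Likewise Nfkbib was above Nfkbid in all 6 libraries of R7-I and R7-III and below it in all 3 of R7-II. These orders are read within a library, so a scaling factor per library does not change them.

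**Figure D1:**
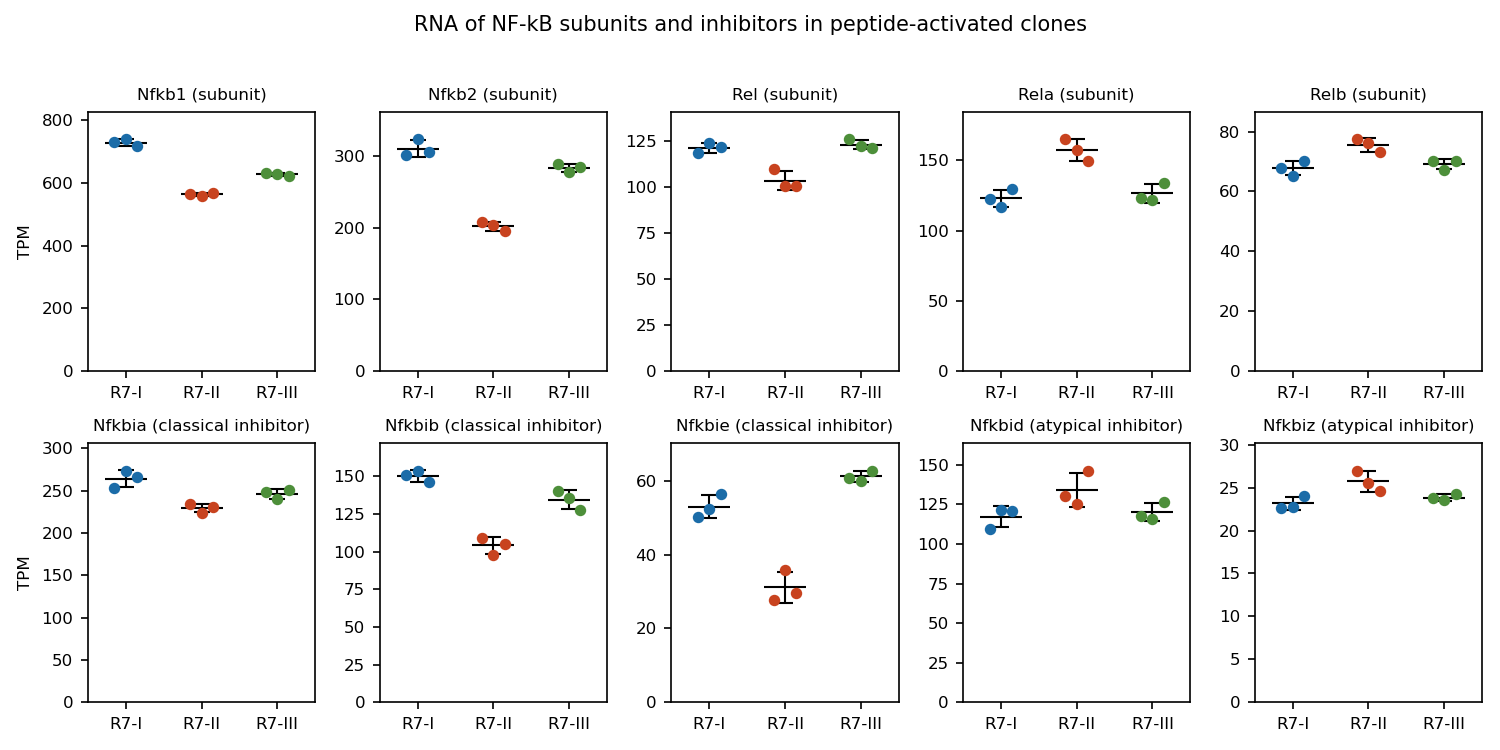
Expression of the 10 members in TPM (vertical axes, each from 0) in the 3 libraries of each clone (horizontal axis), with points for libraries, horizontal bars for means and error bars for the SD. The R7-II points of Nfkb1, Nfkb2, Rel, Nfkbia, Nfkbib and Nfkbie lie below those of both other clones, and those of Rela, Relb and Nfkbiz above, although Relb and Nfkbiz turn under median-of-ratios scaling.

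R7-II stood apart from R7-I in most members, with lower RNA of Nfkb1, Nfkb2, Rel and all 3 classical inhibitors and higher RNA of Rela. With limma on log2(TPM + 1) and an adjusted p under 0.01, 6 of 10 members were lower in R7-II than R7-I, where 15.5% of all genes tested were lower. Higher in R7-II were 2 of 10 members, Rela and Relb, where 40.6% of all genes were, so that a count of this size is no result about the family. For each of the 10 members the libraries of these clones did not overlap, as they did not for 71.2% of all genes tested. The median log2 fold change was -0.22 over the members and 0.17 over all genes.

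This upward shift of all genes in R7-II bears on the direction of small changes. Of all genes, 4604 were higher and 1754 lower in R7-II than R7-I with TPM as deposited, and 2949 were higher and 3230 lower after median-of-ratios scaling of each library. After subtraction of the median of all genes, the log2 fold change from R7-I to R7-II was -0.54 for Nfkb1, -0.78 for Nfkb2, -0.40 for Rel, 0.19 for Rela, -0.37 for Nfkbia, -0.69 for Nfkbib and -0.92 for Nfkbie. For Relb, Nfkbid and Nfkbiz it was -0.014, 0.024 and -0.023, so these genes sat at the median of all genes. The 6 lower members and Rela kept their direction and passed under median-of-ratios scaling and quantile normalization, while Relb lost its call under both and turned to -0.021 under the former.

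**Figure D2:**
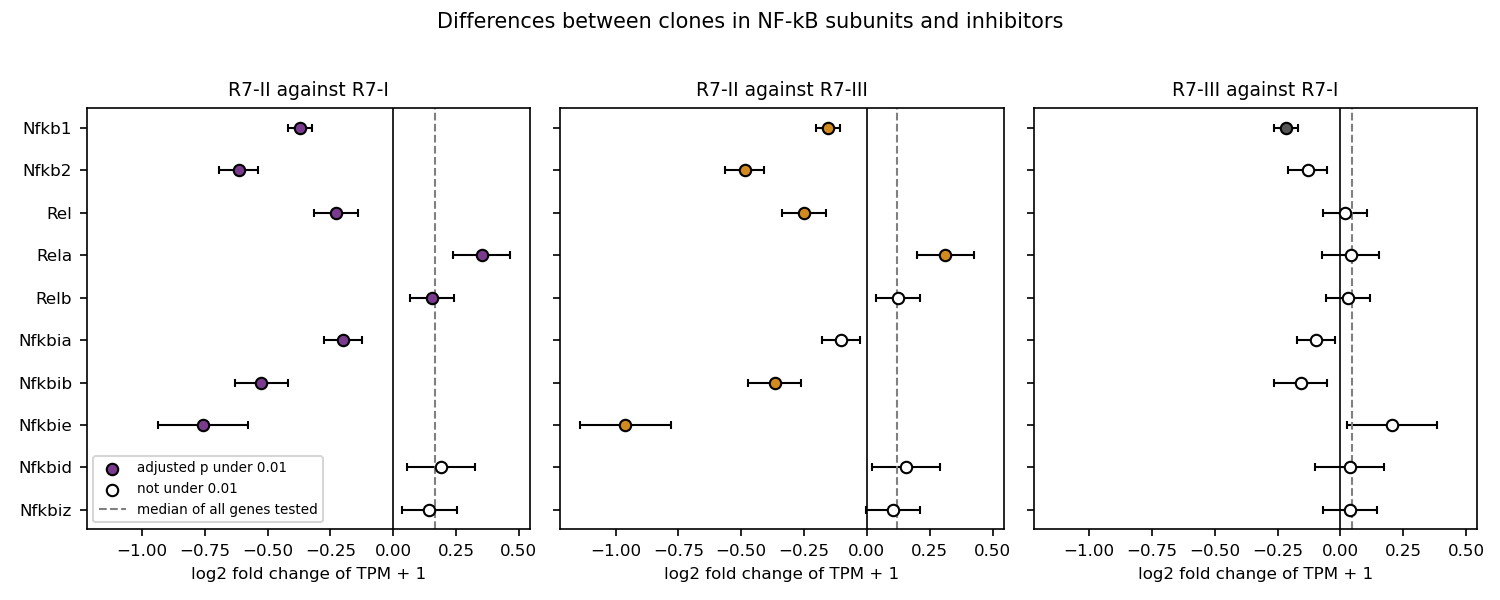
Log2 fold changes of TPM + 1 (horizontal axes) of the 10 members (vertical axis) in the 3 comparisons, from limma, with 95% confidence intervals, filled points for an adjusted p under 0.01 and a dashed line at the median of all genes tested. In both comparisons of R7-II, Nfkbie lies farthest to the left, and Relb, Nfkbid and Nfkbiz lie near the dashed line, with signs of Relb and Nfkbiz that turn under median-of-ratios scaling.

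Among the subunits, Nfkb2 (chr19:46300994-46312400 of GRCm38, the build also called mm10) had the largest difference between R7-II and R7-I. Its RNA was at 302, 324 and 307 TPM in the R7-I libraries, 208, 204 and 196 in R7-II and 289, 278 and 285 in R7-III. All R7-II libraries were below all others, with a mean 0.652 times that of R7-I and 0.713 times that of R7-III. The log2 fold change was -0.62 against R7-I (SE 0.035, adjusted p = 2.065e-07, limma, Benjamini-Hochberg adjusted over all genes tested) and -0.49 against R7-III (SE 0.035, adjusted p = 9.24e-07, limma, adjusted in the same way). In an exact two-sided permutation test, 3 against 3 libraries allow no p below 0.1, so calls rest on limma.

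Nfkb1 (chr3:135584655-135691969) was graded over the clones. Its values were 730.2, 739.9 and 719 TPM in R7-I, 633, 628 and 624 in R7-III and 564, 560.3 and 567 in R7-II. The 3 clones did not overlap, in the order R7-I over R7-III over R7-II. Nfkb2, Nfkbia and Nfkbib had this order too, without overlap, while Nfkbie had R7-III over R7-I over R7-II. Nfkb1 was the member that passed in all 3 comparisons, with log2 fold changes of -0.37 from R7-I to R7-II, -0.16 from R7-III to R7-II and -0.22 from R7-I to R7-III (SE 0.022 each, adjusted p = 2.435e-07, 1.03e-04 and 1.44e-04, limma, Benjamini-Hochberg adjusted). The call against R7-III was lost under quantile normalization (log2 fold change -0.057, adjusted p = 0.0715 from limma, within a range of 1.71e-05 to 0.0715 over the alternatives). Under median-of-ratios scaling it held with a larger log2 fold change of -0.28.

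Rel (chr11:23736847-23770969) encodes c-Rel, a subunit with a transactivation domain that is prominent in lymphocytes. It was at 118, 124 and 122 TPM in R7-I, 109.6, 100.5 and 100.3 in R7-II and 126, 122 and 121 in R7-III. R7-II was below both other clones without overlap, while R7-I and R7-III overlapped. The mean in R7-II was 0.853 times that of R7-I and 0.841 times that of R7-III, with log2 fold changes of -0.23 and -0.25 (SE 0.039 each, adjusted p = 4.25e-04 and 2.56e-04, limma, Benjamini-Hochberg adjusted).

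Rela (chr19:5637442-5648134), the gene of the p65 subunit that pairs with p50 in the canonical dimer, went the other way. Its values were 165, 157 and 149 TPM in R7-II, 122, 117 and 129 in R7-I and 123, 122 and 134 in R7-III. All R7-II libraries were above all 6 others, with a mean 1.28 times that of R7-I and 1.24 times that of R7-III. Relative to R7-I the log2 fold change was 0.35, and relative to R7-III it was 0.31 (SE 0.051 each, adjusted p = 1.27e-04 and 3.22e-04, limma, Benjamini-Hochberg adjusted). Under median-of-ratios scaling these fell to 0.18 and 0.19 and still passed. Relb, the partner of p52 in the non-canonical pathway, lay between 73.0 and 77.4 TPM in R7-II, between 65.3 and 70.2 in R7-I and between 67.2 and 70.25 in R7-III. Its difference from R7-I passed with TPM as deposited (log2 fold change 0.15, SE 0.039, adjusted p = 0.00528 from limma). It failed without R7-I replicate 1, R7-I replicate 2, R7-II replicate 1 or R7-II replicate 2 (log2 fold changes 0.16, 0.13, 0.13 and 0.15), and over the alternatives limma gave it an adjusted p between 0.00494 and 0.631.

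The classical inhibitors, which bind the dimers and mask their nuclear localization signals, were all lower in R7-II than R7-I, and Nfkbie (chr17:45555700-45563169), the gene of IκBε, had the largest difference of all 10 members. Nfkbie was at 27.75, 35.9 and 29.6 TPM in R7-II replicates 1, 2 and 3, at 50.05, 52.4 and 56.4 TPM in R7-I and at 60.7, 60.0 and 62.6 TPM in R7-III. Every R7-II library was below the 6 others. Replicate 2, the R7-II library with the most Nfkbie, was also the one with the least B cell, MHC class II and myeloid marker RNA, and the part of those cells in this difference was not tested. The mean of Nfkbie in R7-II was 0.587 times that of R7-I and 0.509 times that of R7-III. On the log2 scale its fold change was -0.76 relative to R7-I and -0.96 relative to R7-III (SE 0.081 each, adjusted p = 1.52e-05 and 2.895e-06, limma, Benjamini-Hochberg adjusted). Both calls held under all 18 alternatives that gave this gene a value.

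Nfkbib (chr7:28758251-28766644), the gene of IκBβ, was at 151, 154 and 146 TPM in R7-I, 109, 97.7 and 105 in R7-II and 140.2, 136 and 127 in R7-III. R7-II was again below both other clones without overlap. Its log2 fold changes were -0.53 from R7-I and -0.37 from R7-III (SE 0.047 each, adjusted p = 4.51e-06 and 6.12e-05, limma, Benjamini-Hochberg adjusted). Nfkbia (chr12:55489409-55492647) is an inhibitor that NF-κB itself induces quickly, in a negative feedback loop. It was at 253, 273 and 266 TPM in R7-I, 234, 224 and 231 in R7-II and 248, 239.8 and 251 in R7-III. R7-II libraries were below all others, with a log2 fold change of -0.20 against R7-I (SE 0.034, adjusted p = 3.75e-04, limma, Benjamini-Hochberg adjusted). Against R7-III it was -0.10 and missed the threshold (adjusted p = 0.0206 from limma), while under median-of-ratios scaling it was -0.23 and passed (adjusted p = 1.07e-04 from limma, in a range up to 0.0676 over the alternatives).

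The atypical inhibitors act mostly in the nucleus, where IκBζ, encoded by Nfkbiz, and IκBNS, encoded by Nfkbid, bind NF-κB dimers and can raise or lower transcription. Nfkbid lay between 125 and 146 TPM in R7-II, between 109 and 121 in R7-I and between 116 and 127 in R7-III. Nfkbiz lay between 24.6 and 26.95 TPM in R7-II, between 22.7 and 24.0 in R7-I and between 23.5 and 24.2 in R7-III. Neither passed in any comparison, and their log2 fold changes against R7-I were 0.19 and 0.14 (adjusted p = 0.0172 and 0.0217 from limma). That of Nfkbiz turned to -0.025 under median-of-ratios scaling and to -0.10 under quantile normalization. Nfkbid passed against R7-I without R7-II replicate 2 (log2 fold change 0.24) and with the replicate number as a block, and over the alternatives limma gave it an adjusted p between 0.00595 and 0.818. Its log2 fold change against R7-I fell to 0.016 under median-of-ratios scaling and to 0.13 without R7-II replicate 3.

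In R7-II against R7-III, Nfkbia and Relb, which passed against R7-I, did not pass, and the difference between the comparisons was not tested. Both comparisons of R7-II share its libraries, so they are not independent. Here 5 of 10 members were lower in R7-II (Nfkb1, Nfkb2, Rel, Nfkbib and Nfkbie), where 18.0% of all genes tested were lower, and 1 was higher (Rela), where 35.6% were. Libraries did not overlap for 9 of 10 members, against 70.6% of all genes. Under median-of-ratios scaling 6 were lower, and under quantile normalization 4 were, where 3150 and 2843 of 11330 genes were lower. The median log2 fold change was -0.13 over the members and 0.12 over all genes tested.

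The remaining comparison, R7-III with R7-I, set fewer members apart. With limma, 1 of 10 members passed, Nfkb1, which was lower in R7-III, where 1.45% of all genes tested were lower and 6.96% higher. Libraries did not overlap for 5 of 10 members (Nfkb1, Nfkb2, Nfkbia, Nfkbib and Nfkbie), against 41.9% of all genes, and the median log2 fold change was 0.025 over the members and 0.045 over all genes. The log2 fold changes of R7-III against R7-I were -0.13 for Nfkb2 (95% interval -0.21 to -0.052), -0.16 for Nfkbib (-0.26 to -0.054), -0.10 for Nfkbia (-0.17 to -0.023) and 0.20 for Nfkbie (0.025 to 0.38). Their adjusted p lay between 0.0270 and 0.107 in limma. For Nfkb2 and Nfkbia the call passed under median-of-ratios scaling (-0.18 and -0.15, adjusted p = 0.00858 and 0.00950 from limma, with 0.104 and 0.2225 as the highest over the alternatives). Rel, Rela, Relb, Nfkbid and Nfkbiz had log2 fold changes between 0.020 and 0.041 with overlapping libraries, and all 5 signs turned under median-of-ratios scaling. A p that misses the threshold does not show that the clones were equal in these genes.

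Ratios within a library show the make-up of the family, and a scaling factor per library leaves them as they are. The ratio of Nfkb1 to Rela was 5.97, 6.32 and 5.56 in R7-I, 3.42, 3.56 and 3.80 in R7-II and 5.14, 5.14 and 4.65 in R7-III. That of Nfkb2 to Relb, the pair of the non-canonical dimer, was 4.59 ± 0.324 in R7-I, 2.68 ± 0.00351 in R7-II and 4.10 ± 0.0403 in R7-III. In both ratios the clones did not overlap and R7-II was the lowest, so its Rela and Relb RNA was greater relative to that of the precursor partner. Rela made up 14.25 ± 0.470% of the summed TPM of the 5 subunits in R7-II, 9.09 ± 0.5275% in R7-I and 10.3 ± 0.513% in R7-III. The share of Nfkb2 was 18.4 ± 0.308% in R7-II against 23.0 ± 0.602% in R7-I and 23.1 ± 0.232% in R7-III.

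The sums of the subunits and of the classical inhibitors were both lower in R7-II. The summed subunit TPM was 1352 ± 15.5 in R7-I, 1102 ± 19.4 in R7-II and 1231 ± 12.8 in R7-III, and the summed TPM of the 3 classical inhibitors was 467 ± 12.8, 364.5 ± 6.59 and 442 ± 6.865 in the same order. The ratio of inhibitors to subunits was 0.345 ± 0.00601 in R7-I, 0.331 ± 0.00559 in R7-II and 0.359 ± 0.00240 in R7-III. The clones did not overlap in this ratio, with a log2 difference of -0.062 between R7-II and R7-I and -0.12 between R7-II and R7-III. The sign of the former turned to 0.083 when Nfkbid and Nfkbiz were counted as inhibitors, and the latter fell to -0.0019. With the mean of log2(TPM + 1) in place of sums, which weighs each gene alike, the differences were -0.35 and -0.39, so their size depends on the measure. Within the inhibitors the make-up also differed: Nfkbia held 62.9 ± 0.251% of their TPM in R7-II, 56.5 ± 0.644% in R7-I and 55.75 ± 1.02% in R7-III. The share of Nfkbie was 8.55 ± 1.34%, 11.3 ± 0.617% and 13.8 ± 0.350% in the same order. RNA levels say nothing of the amounts of the proteins, which are regulated by processing and degradation and were not measured.

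**Figure D3:**
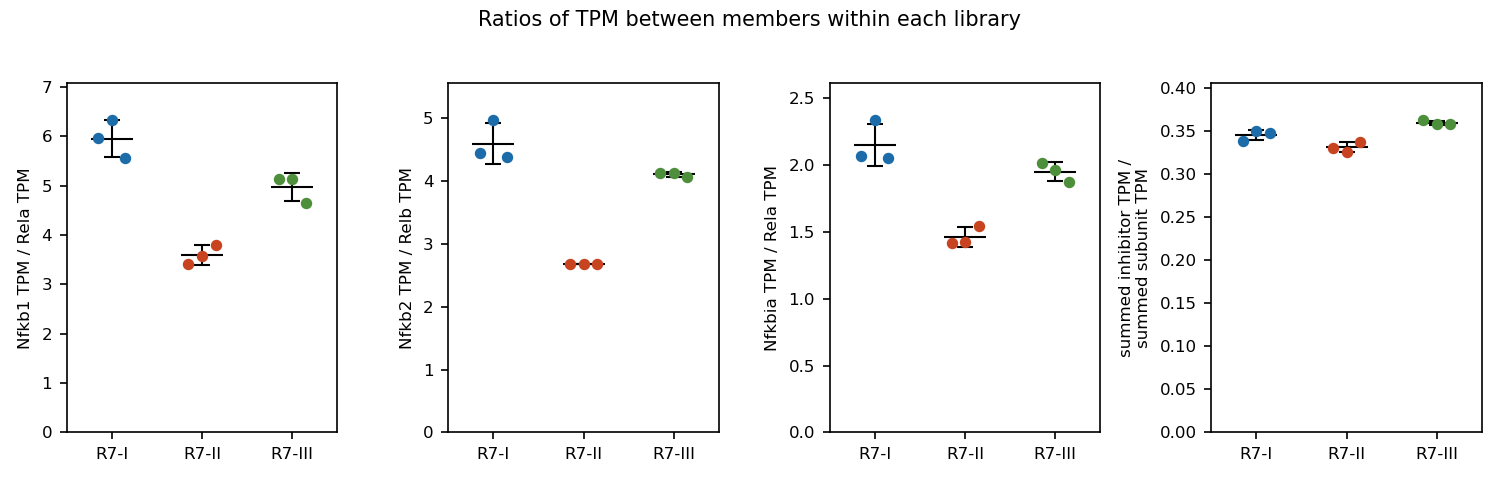
Ratios of TPM between members within each library (vertical axes, each from 0) for the 3 libraries of each clone (horizontal axis), with points for libraries, horizontal bars for means and error bars for the SD. R7-II has the lowest ratio of Nfkb1 to Rela, of Nfkb2 to Relb and of Nfkbia to Rela, and the ratio of summed inhibitors to summed subunits lies between 0.326 and 0.362 in all 9 libraries.

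The members fell into different profiles over the 9 libraries. Likeness was measured as the root mean square difference between log2(TPM + 1) profiles, each centred on its own mean, where a smaller value is more alike. Among all pairs of members, Relb and Nfkbiz were the closest (0.024), followed by Rel with Nfkbia (0.072) and Nfkb2 with Nfkbib (0.076), and Rela and Nfkbie were the farthest apart (0.575). A gene that differs little between libraries is close to any other such gene by this measure. Of the other genes tested, Ccdc50 (0.075), Wee1 (0.077) and Nudt4 (0.078) were the most like Nfkbie. For Nfkb2 these were Mtap (0.042), Lrrc59 (0.045) and Rrp9 (0.047), and for Nfkbib they were Nabp1 (0.041), Pelo (0.054) and Hspa8 (0.057).

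The genes upstream and downstream of the family differed in both directions. Over 6 lists of such genes, 68 of 71 were tested, and 28 were higher and 21 lower in R7-II than R7-I, where 40.6% of all genes tested were higher and 15.5% lower. Their median log2 fold change was 0.15 against 0.17 over all genes. Against R7-III, 31 were higher and 20 lower (all genes 35.6% and 18.0%), with a median of 0.18 against 0.12. R7-III against R7-I gave 3 higher and 3 lower (all genes 6.96% and 1.45%), with a median of -0.022 against 0.045.

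In the relay from the TCR to IKK, a list of 3 genes, R7-II had higher Prkcq and lower Malt1. In counts, 1 was higher and 1 lower than in R7-I, and 2 were higher and 1 lower than in R7-III, with shares over all genes as above. The third gene, Bcl10, chosen after its values were seen, was higher in R7-II without overlap in both comparisons. It passed against R7-III and not against R7-I. The count of higher genes against R7-III fell to 1 under median-of-ratios scaling, where 2896 of 11330 genes were higher. Against R7-I that count was 2 without R7-II replicate 3, where 4153 of 11330 genes were higher. It was also 2 at a threshold of 0.05, for which the share of all genes is not given here. Malt1, a protease of the relay, was at 56.9, 59.7 and 50.0 TPM in R7-II, 105, 99.2 and 92.7 in R7-I and 86.4, 90.5 and 79.5 in R7-III. Here R7-II was below all others, with log2 fold changes of -0.82 from R7-I and -0.62 from R7-III (SE 0.071 each, adjusted p = 3.40e-06 and 2.78e-05, limma, Benjamini-Hochberg adjusted). Prkcq, the gene of protein kinase C theta, was at 105 ± 3.89 TPM in R7-II, 58.7 ± 2.16 in R7-I and 67.3 ± 1.98 in R7-III. It also passed between R7-III and R7-I (log2 fold change 0.19, adjusted p = 0.00937 from limma), and this call was lost under 12 of 18 alternatives, among them both scalings and leaving out any library of R7-I or R7-III. Over the 18 alternatives this log2 fold change lay between 0.15 and 0.22.

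Several IKK genes were higher in R7-II by modest amounts, and the count of them depended on the scaling. Of 12 genes of IKK and its activators, 8 passed against R7-I, all higher, where 40.6% of all genes were, with a median log2 fold change of 0.28. Likewise 10 passed against R7-III, all higher, where 35.6% of all genes were, with a median of 0.29. Ikbkb, the catalytic IKKβ subunit, was at 75.9 ± 3.255 TPM in R7-II, 54.5 ± 2.07 in R7-I and 58.9 ± 1.31 in R7-III. Map3k7, the kinase TAK1 that activates IKK, had 64.6 ± 1.66 TPM in R7-II, 47.45 ± 2.25 in R7-I and 45.3 ± 1.16 in R7-III, and Sharpin, part of the ubiquitin ligase that makes linear chains, had 63.3 ± 1.755, 47.0 ± 2.95 and 49.3 ± 0.958 TPM. These 3 passed against both clones under all 18 alternatives, but they were picked as the largest changes of the list that passed against R7-I. Against R7-I the count of the list fell to 4 higher and 1 lower under median-of-ratios scaling, where 2949 and 3230 of 11330 genes were. Under quantile normalization it fell to 5 higher and 1 lower, where 2558 and 3018 of all genes were. Against R7-III it fell to 6 higher and 1 lower under median-of-ratios scaling, where 2896 and 3150 of all genes were. Under quantile normalization it fell to 4 higher, where 2759 of all genes were.

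In the non-canonical pathway, which leads from the kinase NIK to the processing of p100, 4 of 5 genes were higher in R7-II than R7-I and 3 of 5 higher than in R7-III, where 40.6% and 35.6% of all genes were. Map3k14, the gene of NIK, was at 32.6, 26.5 and 30.6 TPM in R7-II, 18.4, 18.75 and 19.95 in R7-I and 18.5, 18.4 and 18.6 in R7-III. R7-II was above all others, with log2 fold changes of 0.62 and 0.66. Its lowest Map3k14 value was in replicate 2, the R7-II library with the least B cell, MHC class II and myeloid marker RNA. The part of those cells was not tested. Birc2, which encodes the ubiquitin ligase cIAP1, had log2 fold changes of 0.58 and 0.46, and Traf3, an adaptor that keeps NIK low in resting cells, of 0.34 and 0.28. Over the alternatives the log2 fold change against R7-I went down to 0.38 for Map3k14 and 0.37 for Birc2, and both kept their calls. Traf3 lost both calls under median-of-ratios scaling and quantile normalization (adjusted p up to 0.198 and 0.121 from limma over the alternatives), and the list then held 2 higher genes of 5 in each comparison, where 2949 and 2558 of 11330 genes were higher against R7-I and 2896 and 2759 against R7-III. Against R7-III Traf3 also failed without R7-II replicate 1, R7-II replicate 3, R7-III replicate 1 or R7-III replicate 2. Its log2 fold change in that comparison lay between 0.10 and 0.34 over all alternatives. So R7-II had less RNA of Nfkb2, the substrate of this pathway, and more of its kinase.

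Bcl3, Tnip1 and N4bp1 were higher in R7-II. Of 13 genes tested, 7 were higher and 1 lower than in R7-I, where 40.6% and 15.5% of all genes were, with a median log2 fold change of 0.27. Of the same genes, 8 were higher and 2 lower than in R7-III, where 35.6% and 18.0% of all genes were, with a median of 0.31. The medians over all genes were 0.17 and 0.12, and the counts are not read as a result about the list. Under median-of-ratios scaling 6 were higher and 3 lower than in R7-I, where 2949 and 3230 of 11330 genes were. Against R7-III the 2 lower genes fell to 1 without a filter, without the trend, with only the compared clones, or without R7-II replicate 1, R7-III replicate 1 or R7-III replicate 2. Otulin and Commd1, chosen after their values were seen, were lower in R7-II than in all other libraries. Otulin was at 57.0 to 60.4 TPM there and at least 68.35 elsewhere, and Commd1 at 72.7 to 82.0 and at least 86.8. Bcl3, an atypical IκB that binds p50 and p52 dimers, was at 17.85, 14.1 and 18.65 TPM in R7-II, 7.02, 5.77 and 5.66 in R7-I and 6.59, 6.51 and 5.05 in R7-III. Its R7-II libraries lay above all others, with log2 fold changes of 1.32 and 1.34 (SE 0.12 each, adjusted p = 6.23e-06 and 5.89e-06, limma, Benjamini-Hochberg adjusted). Tnip1, a partner of the A20 protein, was at 96.9 ± 7.26 TPM in R7-II, 48.8 ± 0.741 in R7-I and 52.7 ± 0.465 in R7-III, and N4bp1 at 26.4 ± 1.795, 12.8 ± 0.974 and 13.6 ± 0.745 TPM. Within R7-II, Bcl3, Tnip1 and N4bp1 were lowest in replicate 2, which also had the least B cell, MHC class II and myeloid marker RNA. The part of those cells in these differences was not tested. Tnfaip3, the gene of A20 itself, had log2 fold changes of -0.057 from R7-I and 0.057 from R7-III and did not pass (adjusted p = 0.433 and 0.436 from limma). Over the alternatives these lay between -0.23 and -0.011 and between -0.067 and 0.10. Under median-of-ratios scaling Tnfaip3 passed as lower than in R7-I (log2 fold change -0.23, adjusted p = 0.00605 from limma, in a range up to 0.891 over the alternatives), and its sign against R7-III turned under both scalings.

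Receptors of the TNF family and CD28 that signal to NF-κB differed in both directions. Of 10 listed, 8 were tested, among them Cd40, which passed the filter only through R7-II and was called in neither comparison of R7-II. Of the 8 tested, 5 were higher in R7-II than R7-I and 2 lower, where 40.6% and 15.5% of all genes were. Of these receptors, 5 were higher than in R7-III and 1 lower, where 35.6% and 18.0% of all genes were. Tnfrsf18, Tnfrsf1a, Tnfrsf1b, Cd27 and Cd28 were the higher ones in both, of which Tnfrsf1b, Cd27 and Cd28 were chosen after their values were seen. Tnfrsf4, the receptor OX40 that is induced by activation, was at 23.3, 27.6 and 27.6 TPM in R7-II, 49.1, 60.5 and 51.0 in R7-I and 72.75, 59.1 and 67.2 in R7-III. All R7-II libraries were the lowest, with log2 fold changes of -1.005 and -1.31. Tnfrsf9, the receptor 4-1BB, was at 345 ± 46.9 TPM in R7-II, 507 ± 10.7 in R7-I and 378 ± 49.1 in R7-III. It was lower than in R7-I (log2 fold change -0.56, adjusted p = 4.19e-04 from limma) and did not pass against R7-III (-0.13, adjusted p = 0.246 from limma), and the difference between these was not tested. Over the alternatives its log2 fold change against R7-III lay between -0.26 and -0.030. Tnfrsf18, the receptor GITR, had log2 fold changes of 0.80 from R7-I and 0.67 from R7-III, and Tnfrsf1a, a TNF receptor with a death domain, of 0.65 and 0.60. Over the alternatives that of Tnfrsf1a against R7-I went down to 0.41, and its call was kept. Within R7-II, Tnfrsf1a was lowest in replicate 2, which also had the least B cell, MHC class II and myeloid marker RNA. The part of those cells in this difference was not tested.

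Most NF-κB target genes of T cells were lower in R7-II. Of 27 tested, 17 were lower and 3 higher than in R7-I, where 15.5% and 40.6% of all genes were, with a median log2 fold change of -0.33. In the other comparison 16 were lower and 3 higher than in R7-III, where 18.0% and 35.6% of all genes were, with a median of -0.30. Under median-of-ratios scaling 20 were lower than in R7-I and 17 lower than in R7-III, where 3230 and 3150 of 11330 genes were. Under quantile normalization these counts were 17 and 14, where 3018 and 2843 of all genes were lower. Of the 27, 2 passed the filter through some clones only. With a filter of at least 1 TPM in every library, 16 were lower and 3 higher than in R7-I, where 1654 and 4175 of 9908 genes were. With that filter 15 were lower and 3 higher than in R7-III, where 1872 and 3636 of 9908 genes were. Many of these genes are known to be driven by other factors of TCR signaling as well, such as NFAT and AP-1. Il2, the gene of the T cell growth factor IL-2, was at 35.8, 58.1 and 52.3 TPM in R7-II, 145, 147 and 167 in R7-I and 186, 176 and 226 in R7-III. R7-II was below all others, with log2 fold changes of -1.66 and -2.01 (SE 0.15 each, adjusted p = 5.19e-06 and 1.375e-06, limma, Benjamini-Hochberg adjusted). Ifng, the gene of interferon gamma, was at 25.2, 36.9 and 47.5 TPM in R7-II, 153, 160.5 and 133 in R7-I and 121, 117 and 128 in R7-III. Ccl3, a chemokine gene, was at 409 ± 7.71 TPM in R7-II, 1435 ± 77.0 in R7-I and 1093 ± 101 in R7-III, and Il2ra, the IL-2 receptor alpha chain, at 259.5 ± 13.8, 377 ± 14.1 and 357 ± 11.6 TPM.

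The target genes higher in R7-II in both comparisons were Ltb, Ccr7 and Fas, of which Ccr7 and Fas were chosen after their values were seen. Ltb, the gene of lymphotoxin beta, was at 285, 219 and 306 TPM in R7-II, 35.9, 34.4 and 41.6 in R7-I and 36.4, 35.6 and 47.2 in R7-III. The R7-II libraries were far above all others, with log2 fold changes of 2.81 and 2.73. Ltb is also expressed by B cells, whose markers were higher in R7-II, and their part in this difference was not tested. Comparing R7-III with R7-I, 23 of 27 targets did not pass. Those that did were 3 lower and 1 higher in R7-III, where 1.45% and 6.96% of all genes were. Under quantile normalization 1 was lower, where 255 of 11330 genes were, and the count of higher genes fell to 0 under 9 alternatives. Ccl3 was lower in R7-III (log2 fold change -0.39) and kept that call under all alternatives with a value for it.

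**Figure D4:**
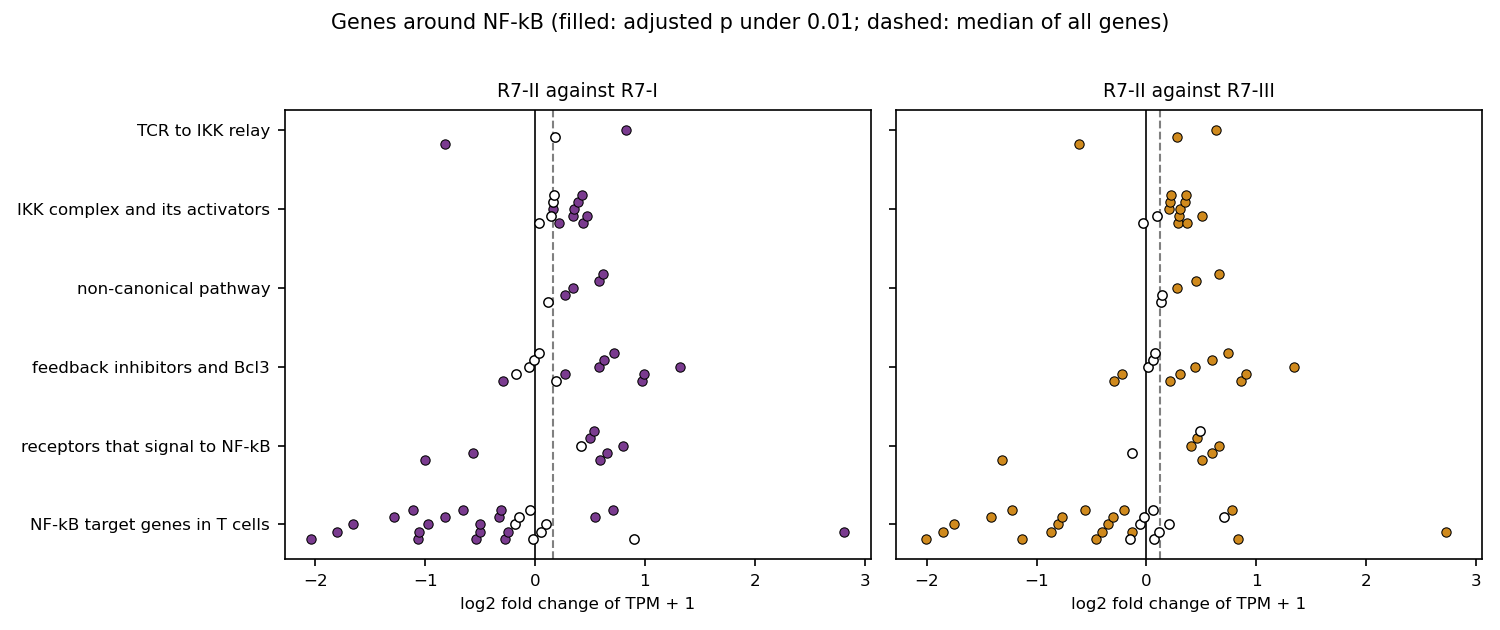
Log2 fold changes of TPM + 1 (horizontal axes) of the genes tested in 6 lists (vertical axis) for R7-II against each other clone, with 1 point per gene, filled where the adjusted p from limma is under 0.01, and the median of all genes dashed, where the height of points within a list has no meaning. Targets lie mostly to the left of 0, with Ltb at the far right, and genes of IKK and the non-canonical pathway mostly to the right, although fewer genes of these 2 upstream lists are higher under median-of-ratios scaling and quantile normalization.

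Of the members, Relb, Nfkbib and Nfkbid lie on chromosome 7 and Nfkb2 and Rela on chromosome 19. Promoter windows of 250 bases before an annotated start were taken from RefSeq (GRCm38.p6) for 7 of the 10 members, in 11 windows. The set of windows used here held none for Nfkb1, Relb and Nfkbiz. Windows were searched on both strands for the κB consensus, the DNA motif bound by NF-κB dimers, and for the looser GGGNNNNNCC. Every match to the consensus also fits this looser pattern. The κB consensus was found in 7 of 11 windows, of 5 members (Nfkb2, Rel, Nfkbia, Nfkbie and Nfkbid), and in 3.90% of 32851 windows of all genes. GGGNNNNNCC was found in 10 of 11 windows and in 45.8% of all windows. Nfkb2 and Nfkbid had 3 windows each, some of which overlap for Nfkb2, so windows are not separate units. No share of all genes is given beside the 5 members. A match describes the sequence and is no sign that the site was bound, and the lack of the κB consensus in the windows of Rela and Nfkbib says only that its letters are not there. Windows of 3 members that were lower in R7-II than R7-I are printed to show where the motif lies, 5′ to 3′ on the strand of the gene, with matches to the κB consensus in capitals. That of Nfkbie lies at chr17:45555450-45555699 on the plus strand, with a match that begins 106 bases before the start. That of Nfkbia lies at chr12:55492648-55492897 on the minus strand, with a match that begins 29 bases before the start. That of Rel lies at chr11:23770970-23771219 on the minus strand, with overlapping matches that begin 92 and 91 bases before the start. None of these 3 windows overlaps an annotated gene.
Nfkbie: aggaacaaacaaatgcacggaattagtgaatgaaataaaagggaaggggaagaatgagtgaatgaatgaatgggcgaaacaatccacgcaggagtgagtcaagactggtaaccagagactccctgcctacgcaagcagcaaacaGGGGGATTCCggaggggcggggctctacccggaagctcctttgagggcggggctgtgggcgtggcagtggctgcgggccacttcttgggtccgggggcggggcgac
Nfkbia: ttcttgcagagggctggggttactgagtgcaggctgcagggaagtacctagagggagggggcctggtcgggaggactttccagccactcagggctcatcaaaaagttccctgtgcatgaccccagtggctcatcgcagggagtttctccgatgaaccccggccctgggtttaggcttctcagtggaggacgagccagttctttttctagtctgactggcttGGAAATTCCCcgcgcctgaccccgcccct
Rel: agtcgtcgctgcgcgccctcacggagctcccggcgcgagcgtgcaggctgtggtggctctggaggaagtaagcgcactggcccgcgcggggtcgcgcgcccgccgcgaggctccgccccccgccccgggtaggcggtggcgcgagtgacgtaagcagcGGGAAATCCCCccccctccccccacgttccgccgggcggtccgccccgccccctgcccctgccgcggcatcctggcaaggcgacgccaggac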

How the data were processed

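Polyadenylated RNA of activated, sorted CD8 T cells was sequenced in 9 libraries. The authors estimated gene levels with RSEM 1.2.11 on mm10 and deposited them as TPM per gene symbol. The authors' test, DESeq2 1.8.1 on counts, was not used. Genes with a maximum TPM above 1 were kept, and log2(TPM + 1) was tested with limma 3.58.1 in R 4.3.3 (eBayes with trend), fitted jointly to the 9 libraries, with p-values adjusted over 11330 genes by Benjamini-Hochberg and called under 0.01. Exact two-sided permutation tests used scipy 1.17.1 in Python 3.11.15. In data simulated for R7-II against R7-I with 200 of 11330 genes changed, the fit called 74 of 100 changed by 0.5 in log2, all 100 changed by 1 and 2 unchanged genes. In the real data 6358 genes passed in this comparison, far more than were changed in the simulation, so these rates may not hold for it. The members and lists were chosen with earlier results of these data known. Named genes were all members, 3 per pathway list with the largest absolute change passing in R7-II against R7-I, the core relays Malt1, Ikbkb, Map3k14, Tnfaip3, Bcl3, Il2, Il2ra and Tnfrsf9, the 3 genes most like each of 3 members, and the most abundant gene of each cell type list. A gene of the rule and of a pathway list was left out later for a reason unrelated to its values. Alternatives changed the pseudocount, the filter, the scaling of libraries, the eBayes trend, the threshold, the clones in the fit, a block for replicate number, the libraries (each left out once) and the genes or scale of the inhibitor to subunit ratio. Positions and promoter windows are from RefSeq (GRCm38.p6).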

Additional observations from a re-analysis of the deposited data

How the results depend on the processing

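Nfkb2, Rel, Rela, Nfkbib and Nfkbie in both comparisons of R7-II, Nfkb1 and Nfkbia in R7-II against R7-I, and Nfkb1 in R7-III against R7-I kept direction and call in all 18 alternatives. The log2 fold change against R7-I lay from -0.94 to -0.68 for Nfkbie, -0.79 to -0.58 for Nfkb2 and 0.18 to 0.39 for Rela. The causes of the following differences were not tested.

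The members higher in R7-II than R7-I, 2, were 1 under median-of-ratios scaling, quantile normalization, eBayes without trend and only the clones compared, 1 to 2 when 1 library was left out (1 without R7-I replicate 1, R7-I replicate 2 or R7-II replicate 1), and 4 at a threshold of 0.05. Members higher than in R7-III were 3 at 0.05. Under the settings that gave 1 against R7-I, between 2558 and 4448 of all 11330 genes were higher. Shares of all genes at 0.05 are not given here, but cannot be below the 40.6% and 35.6% at 0.01. These counts are therefore no result about the family. Between R7-III and R7-I, members passing and members lower were both 3 under median-of-ratios scaling and at 0.05, and the former gave 390 lower and 561 higher of 11330 genes, against 164 and 789 with TPM as deposited. Pathway genes passing between R7-III and R7-I were 2 under quantile normalization, 3 with eBayes without trend, 12 at 0.05 and 2 to 7 with 1 library left out. Genes passing in that comparison were 2142 at 0.05 and 422 to 1076 with 1 library left out, with at least 911 where it was of R7-II and at most 619 where it was of R7-I or R7-III, which leaves a compared clone with fewer libraries.

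With Nfkbid and Nfkbiz added to the inhibitors, the log2 ratio of inhibitor to subunit was 0.083 for R7-II minus R7-I, -0.0019 for R7-II minus R7-III and 0.085 for R7-III minus R7-I, and with the mean of log2(TPM + 1) it was -0.35, -0.39 and 0.034.

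Signs turned as follows, in log2. Under median-of-ratios scaling, R7-II against R7-I gave Relb -0.021 and Nfkbiz -0.025, R7-II against R7-III gave Relb -0.0015, Nfkbiz -0.018 and Tnfaip3 -0.067, and R7-III against R7-I gave Rel -0.029, Rela -0.0085, Relb -0.019, Nfkbid -0.013 and Nfkbiz -0.0074. Under quantile normalization, R7-II against R7-I gave Nfkbiz -0.098, R7-II against R7-III gave Nfkbiz -0.077 and Tnfaip3 -0.041, and R7-III against R7-I gave Relb -0.0016, Nfkbiz -0.022, Tnfrsf1a -0.034 and Traf3 -0.018. With 1 library left out, R7-III against R7-I gave Rela -0.0019 to 0.077, Nfkbid -0.011 to 0.062, Ltb -0.045 to 0.16, Bcl3 -0.080 to 0.084 and Tnfrsf1a -0.030 to 0.10, and R7-II against R7-III gave Tnfaip3 -0.0055 to 0.10. The sign turned without R7-III replicate 3 for Rela, Nfkbid (-0.0019), Ltb and Bcl3, without R7-I replicate 1 for Nfkbid and Bcl3 (0.063), without R7-I replicate 2 for Tnfrsf1a and without R7-II replicate 3 for Tnfaip3.

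With the replicate block, 6015 genes passed in R7-II against R7-I, 5786 in R7-II against R7-III and 733 in R7-III against R7-I, and 9, 6 and 1 members. After each clone's mean was removed, libraries with the same number correlated at -0.045 to 0.089 across genes and others at -0.095 to 0.065, which gives no sign that the numbers pair the samples.

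No read counts were used, so counting error was not separated from other spread. Nothing given shows whether replicates are separate mice, TPM is relative to the total of a library, and sums over symbols do not separate isoforms or precursor from processed protein. The Bcl2a1 target genes are near copies of each other, so their separate values are uncertain.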
